A study of Arabidopsis thaliana with 12 samples.

Results

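The 10 transcripts described here encode photoreceptors and the core factors that act downstream of light in Arabidopsis thaliana. They are PHYA (AT1G09570), PHYB (AT2G18790), CRY1 (AT4G08920), CRY2 (AT1G04400), COP1 (AT2G32950), HY5 (AT5G11260), HYH (AT3G17609), PIF3 (AT1G09530), PIF4 (AT2G43010) and PIF5 (AT3G59060). They were taken by locus from a table of 33618 genes measured by RNA-seq, and all 10 were among the 17290 genes that passed the filter for testing. Levels are given in FPKM, which scales fragments for transcript length and library size, so that values of different genes can be compared per length. The rosettes came from wild type (WT, accession not given in the sources used here), from plants carrying the mutant allele vtc2-4 (vtc2), from plants carrying vtc4-4 (vtc4), and from vtc2/OE-VTC2 L15 (OE), 1 line whose label reads as VTC2 overexpression on top of the vtc2 mutation. The sources used here do not give the construct or its promoter. VTC2 and VTC4 encode enzymes that plants use to make ascorbate (vitamin C), and the series' title ties ascorbate to auxin biosynthesis. Each group had 3 libraries, each made from a pool of 8 rosettes, and there was no treatment. All plants were 4 weeks old, grew with 8 h of light at 300 μmol photons m-2 s-1 and 16 h of dark at 22 °C, and were frozen 30 min after the lights came on.

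Phytochromes sense red and far-red light and cryptochromes sense blue light. In darkness the E3 ubiquitin ligase subunit COP1 targets positive factors such as the bZIP protein HY5 and its homologue HYH for breakdown, while the bHLH proteins of the PIF family hold plants in a dark-grown or shade-type growth programme. Light acting through the receptors restrains COP1 and promotes breakdown of PIFs, so that HY5 and HYH accumulate and drive genes for pigments and photoprotection. Sampling shortly after dawn falls in the interval when this switch takes place each day. Much of this regulation acts on the proteins, which were not measured here.

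The libraries matched the labels of the mutants. VTC2 stood between 745 and 900 FPKM in WT, between 14.8 and 20.3 in vtc2 and between 366 and 411 in OE, and VTC4 between 0.276 and 0.426 in vtc4 against 25.2 to 30.3 in WT. OE therefore stood above vtc2 and below WT for VTC2, so its label is used only as a name. Sums of FPKM per library ran from 684606 to 757484, and 16591 to 16962 genes per library reached 1 FPKM. The vtc2 libraries held the lowest sums, 684606 to 695840, and vtc4 replicate 3 was the next lowest at 706293. Rescaling every library to the same sum, called TPM below, therefore raises vtc2 values relative to the other genotypes. The leaf antenna gene LHCB1.1 stood between 6608 and 8643 FPKM, while RBCS1A and RCA, which leaves use strongly, were listed at 0 in all 12 libraries. Of 5 root markers, EXPA7, COBL9, NRT2.1 and IRT1 stayed at or below 0.165 FPKM, and the 5 flower markers at or below 0.607. The summed root marker level, nearly all of it PYK10, was 24.8 to 31.4 in vtc2, 22.5 to 30.6 in vtc4, 18.7 to 21.4 in OE and 11.0 to 17.4 in WT. PYK10 was the 1 root marker that passed the filter, and the test used below called it higher in vtc2 than in WT (log2 fold change 0.95). It was not called in vtc4 against WT (0.83) or in OE against WT (0.51). The part of PYK10 in the results below was not tested. In pooled rosettes, fewer cells of a type and less RNA per cell cannot be told apart.

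The sequences just upstream of 4 of the genes are shown as examples, although none of the 10 passed the main test below. HY5 and HYH stood lower in vtc2, and PHYB showed the largest difference between OE and vtc2. PIF5 was highest, within each genotype, in the library where HY5 was lowest. Each sequence is the 200 bases before the annotated gene start in TAIR10.1, read 5′ to 3′ on the gene's strand. They lie at chr5:3595074-3595273 (minus strand), chr3:6023644-6023843 (plus), chr2:8139556-8139755 (plus) and chr3:21830838-21831037 (minus). Capitals mark the G-box CACGTG bound by bHLH and bZIP factors, the PBE-box CACATG, which reads CATGTG on the other strand, and the core ACGT, which every G-box contains.
HY5: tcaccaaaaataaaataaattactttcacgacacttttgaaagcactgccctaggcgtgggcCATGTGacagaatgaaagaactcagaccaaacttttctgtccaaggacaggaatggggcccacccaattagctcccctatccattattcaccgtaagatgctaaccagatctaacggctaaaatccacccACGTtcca
HYH: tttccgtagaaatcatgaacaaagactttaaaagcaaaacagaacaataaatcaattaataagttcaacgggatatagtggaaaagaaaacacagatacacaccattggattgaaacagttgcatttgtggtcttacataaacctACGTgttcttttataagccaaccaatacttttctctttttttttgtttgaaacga
PHYB: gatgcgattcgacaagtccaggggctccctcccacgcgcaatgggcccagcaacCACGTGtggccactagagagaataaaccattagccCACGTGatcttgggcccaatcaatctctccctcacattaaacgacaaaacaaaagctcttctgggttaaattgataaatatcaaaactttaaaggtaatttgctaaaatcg
PIF5: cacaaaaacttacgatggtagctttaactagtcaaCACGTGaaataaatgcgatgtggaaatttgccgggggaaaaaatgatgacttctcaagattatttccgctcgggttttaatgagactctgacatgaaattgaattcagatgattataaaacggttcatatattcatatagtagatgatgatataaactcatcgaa
In windows of 250 bases before the gene start, 2 of the 10 genes held a G-box, PHYB with 2 copies and PIF5 with 1, against 6.49% of 27443 protein-coding genes. A PBE-box stood before HY5 only, against 11.1% of all windows. The outermost bases of the HY5 window reach into the neighbouring gene AT5G11270, while this PBE-box lies in the stretch printed above, nearer the gene start. ACGT stood before 7 of 10, PHYA, PHYB, COP1, HY5, HYH, PIF4 and PIF5, against 44.1%. CRY1, CRY2 and PIF3 held none of these motifs, and CRY1, like PIF5, was highest in the libraries where HY5 was lowest. These matches describe the letters in the windows and no binding was measured.

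By level, the transcription factors HYH and HY5 led the group and the phytochrome partner PIF3 came last. Mean FPKM over the 12 libraries was 211 for HYH and 114 for HY5, then 81.0 for PHYA, 75.3 for PIF5, 59.3 for CRY1, 35.4 for PIF4, 35.1 for CRY2, 28.9 for PHYB, 18.0 for COP1 and 5.56 for PIF3. HYH lay above HY5, HY5 above PHYA, CRY1 above PIF4, CRY2 above PHYB, PHYB above COP1 and COP1 above PIF3 in every library and without overlap in all 4 genotypes. PIF4 and CRY2 could not be ordered, as PIF4 was higher in 6 of 12 libraries. PHYA lay above PIF5 in 11 of 12 libraries, but their ranges were separate in 1 of the 4 genotypes. PIF5 lay above CRY1 in every library and apart from it in 3 genotypes. None of the 10 genes overlaps another gene in the TAIR10.1 annotation.

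**Figure D1:**
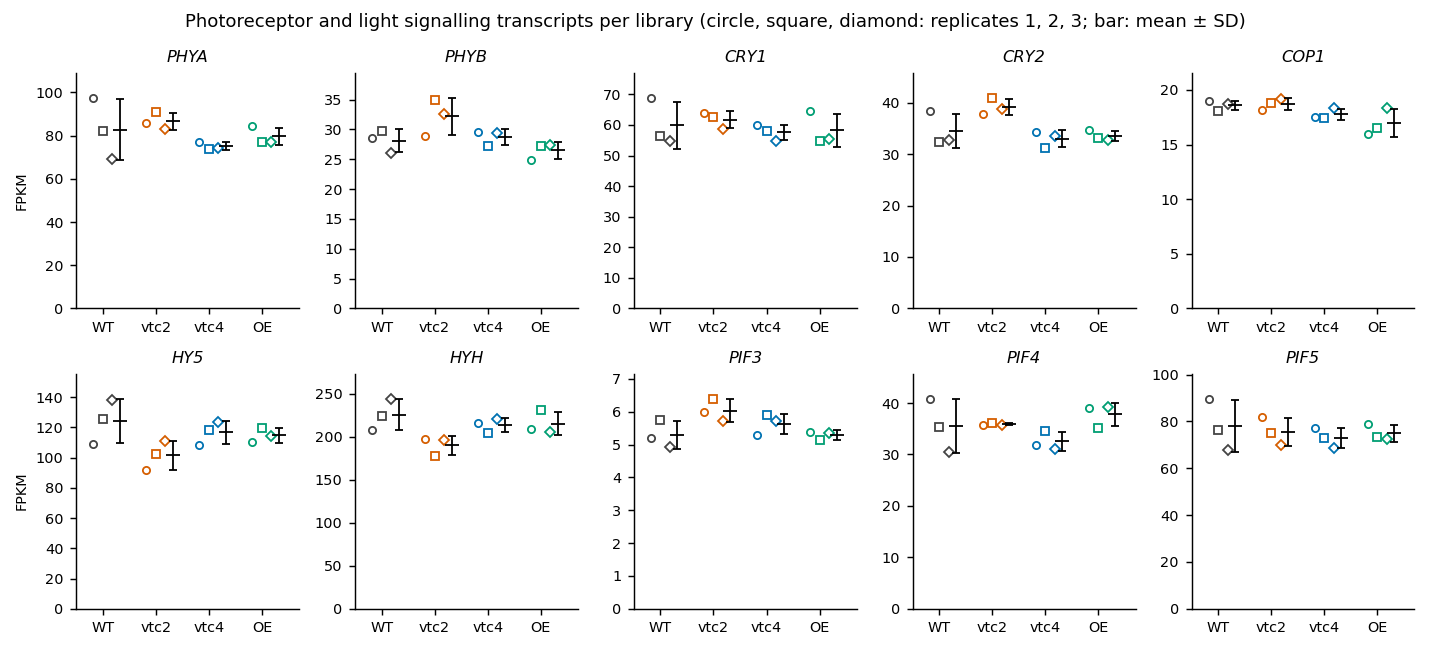
FPKM of the 10 transcripts (y axis, linear, from 0) in WT, vtc2, vtc4 and OE (x axis), with each library as a point and the mean ± SD of 3 libraries beside it. HYH in vtc2 lies below every library of the other genotypes, CRY2 in vtc2 lies above all OE and vtc4 libraries, and CRY1, COP1, HY5 and PIF5 overlap between all genotypes.

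None of the 10 transcripts passed the test in any of the 6 comparisons between genotypes (limma, Benjamini-Hochberg adjusted p below 0.05 over 17290 genes, fold changes on the log2(FPKM + 1) scale). The background was 3.02% of all genes called in vtc2 against WT, 0.0347% in vtc4 against WT, 0.0174% in OE against WT, 5.14% in OE against vtc2, 1.36% in vtc2 against vtc4 and 0.0405% in OE against vtc4. A moderated F test for any difference between the 4 groups called 0 of the 10 as well, with 2.00% of all genes called and a lowest adjusted p of 0.179, for CRY2. At an unadjusted p below 0.05, that F test picked 4 of the 10, CRY2, HYH, PHYB and HY5, where 18.5% of all genes were picked. The 10 were chosen with earlier results of these data known, so this count is a description and not independent evidence. The 95% intervals of the 10 genes, which are not adjusted for the number of genes, stayed within 1.4-fold in either direction in vtc2 against WT, within 1.26-fold in vtc4 against WT and within 1.24-fold in OE against WT.

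The bZIP factors HY5 and HYH stood lowest in vtc2, short of the test. HYH measured 208, 225 and 244 FPKM in WT, 197, 177 and 196 in vtc2, 216, 205 and 220 in vtc4, and 209, 231 and 206 in OE. All 3 vtc2 libraries lay below every library of the other genotypes. The mean was 190 ± 11.1 in vtc2 against 226 ± 18.2 in WT (SD, n = 3 each), a log2 fold change of -0.24 (SE 0.072, 95% interval -0.40 to -0.087, limma adjusted p = 0.0912). HYH was the 1 of 10 members lower without overlap in that comparison, where 12.6% of all genes were, and none was higher without overlap, where 10.4% were. HY5, the main activator of light-responsive genes, measured 109, 125 and 138 FPKM in WT, 91.5, 102 and 111 in vtc2, 108, 118 and 124 in vtc4, and 110, 120 and 114 in OE. The vtc2 range overlapped that of each other genotype, since vtc2 replicate 3 lay above the lowest library of each. Its log2 fold change in vtc2 against WT was -0.29 (SE 0.091, interval -0.49 to -0.089, limma adjusted p = 0.111). Against vtc4, vtc2 differed by -0.20 for HY5 (limma adjusted p = 0.231) and -0.17 for HYH (0.207). OE exceeded vtc2 by 0.18 for each gene on the log2 scale (limma adjusted p = 0.26 for HY5 and 0.163 for HYH). The ratio of HY5 to HYH within a library was 0.55 ± 0.0218 in WT, 0.535 ± 0.0615 in vtc2, 0.547 ± 0.0401 in vtc4 and 0.534 ± 0.02 in OE (SD, n = 3 each), and the 4 ranges overlapped.

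Among the photoreceptors, the blue light receptor CRY2 and the red light receptor PHYB had their highest means in vtc2, as did PHYA and CRY1. For PHYA and CRY1 the log2 fold change in vtc2 against WT was 0.08 (limma adjusted p = 0.703) and 0.05 (limma adjusted p = 0.808). CRY2 measured 38.4, 32.3 and 32.8 FPKM in WT, 37.8, 40.8 and 38.8 in vtc2, 34.3, 31.2 and 33.5 in vtc4, and 34.7, 33.2 and 32.8 in OE. The vtc2 libraries lay above all vtc4 and OE libraries, while WT replicate 1 fell inside their range. The log2 fold change was 0.18 in vtc2 against WT (SE 0.070, limma adjusted p = 0.178), 0.24 in vtc2 against vtc4 (adjusted p = 0.0956) and -0.22 in OE against vtc2 (adjusted p = 0.0896). PHYB measured 28.5, 29.8 and 26.1 FPKM in WT, 29.0, 35.0 and 32.6 in vtc2, 29.6, 27.1 and 29.3 in vtc4, and 24.9, 27.3 and 27.4 in OE. All OE libraries lay below all vtc2 libraries, and the vtc2 range overlapped those of WT and vtc4. OE differed from vtc2 by -0.27 for PHYB (SE 0.077, interval -0.43 to -0.097, limma adjusted p = 0.0687). In vtc2 against WT the log2 fold change of PHYB was 0.19 (SE 0.0775, limma adjusted p = 0.211). Single libraries decided the side of the threshold in OE against vtc2: without WT replicate 1, CRY2 passed (limma adjusted p = 0.0499), and without vtc2 replicate 1, PHYB passed (log2 fold change -0.34, limma adjusted p = 0.0248).

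The far-red receptor PHYA and the blue light receptor CRY1 varied more between WT libraries than between genotypes. PHYA measured 97.2, 82.0 and 69.1 FPKM in WT, 85.9, 90.8 and 83.2 in vtc2, 77.2, 74.0 and 74.2 in vtc4, and 84.2, 77.2 and 77.3 in OE. The WT libraries spanned those of every other genotype. The vtc2 libraries all lay above those of vtc4, by 0.20 on the log2 scale (SE 0.0966, limma adjusted p = 0.255), and the OE libraries lay above those of vtc4 by a margin smaller than the rounding of the values given here. CRY1 measured 68.7, 56.3 and 54.7 FPKM in WT, 64.0, 62.5 and 58.6 in vtc2, 59.9, 58.1 and 54.9 in vtc4, and 64.4, 54.7 and 55.5 in OE. All 4 ranges of CRY1 overlapped, and its log2 fold change ran from -0.09 in OE against vtc2 to 0.10 in vtc2 against vtc4. Within a library the ratio of PHYA to PHYB was 2.94 ± 0.409 in WT, 2.71 ± 0.227 in vtc2, 2.62 ± 0.099 in vtc4 and 3.01 ± 0.322 in OE (SD, n = 3 each). The ratio of CRY1 to CRY2 was 1.73 ± 0.0619 in WT, 1.58 ± 0.0997 in vtc2, 1.75 ± 0.113 in vtc4 and 1.73 ± 0.11 in OE (SD, n = 3 each). Such ratios do not depend on the scaling of a library, and vtc2 overlapped WT in both.

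COP1, the ubiquitin ligase subunit that the receptors hold in check, differed little. It measured 19.0, 18.1 and 18.7 FPKM in WT, 18.2, 18.8 and 19.2 in vtc2, 17.5, 17.4 and 18.4 in vtc4, and 15.9, 16.6 and 18.4 in OE. OE held the lowest values, but its replicate 3 lay inside the ranges of WT and vtc2 and level with the highest vtc4 library. The log2 fold change was 0.01 in vtc2 against WT (95% interval -0.13 to 0.14, limma adjusted p = 0.959), -0.13 in OE against WT (limma adjusted p = 0.842) and -0.14 in OE against vtc2 (limma adjusted p = 0.207).

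The PIF transcripts, which encode bHLH factors that bind active phytochrome, gave small differences that ran in no single direction. PIF3 measured 5.21, 5.74 and 4.92 FPKM in WT, 6.01, 6.40 and 5.70 in vtc2, 5.30, 5.89 and 5.71 in vtc4, and 5.40, 5.13 and 5.36 in OE. OE lay below vtc2 in every library, by -0.16 on the log2 scale (SE 0.0743, limma adjusted p = 0.219), and vtc2 against WT gave 0.16 (limma adjusted p = 0.252) with overlapping ranges. PIF4, which promotes elongation in warmth and shade, measured 40.8, 35.4 and 30.4 FPKM in WT, 35.7, 36.1 and 35.8 in vtc2, 31.9, 34.6 and 31.1 in vtc4, and 38.9, 35.2 and 39.2 in OE. The OE libraries all lay above those of vtc4 (0.21 on the log2 scale, SE 0.0895, limma adjusted p = 0.974 with an unadjusted p of 0.0379), as did the vtc2 libraries (0.14, limma adjusted p = 0.403). PIF5, the closest relative of PIF4, measured 89.7, 76.4 and 67.8 FPKM in WT, 81.9, 74.9 and 69.8 in vtc2, 77.3, 72.7 and 68.5 in vtc4, and 79.1, 73.3 and 72.4 in OE. The PIF5 ranges overlapped between all genotypes, with a log2 fold change of -0.04 in vtc2 against WT (95% interval -0.24 to 0.17, limma adjusted p = 0.858). The ratio of PIF4 to PIF5 was 0.456 ± 0.00729 in WT, 0.477 ± 0.0383 in vtc2, 0.448 ± 0.0319 in vtc4 and 0.504 ± 0.0319 in OE (SD, n = 3 each), with every OE library above every WT and vtc4 library.

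**Figure D2:**
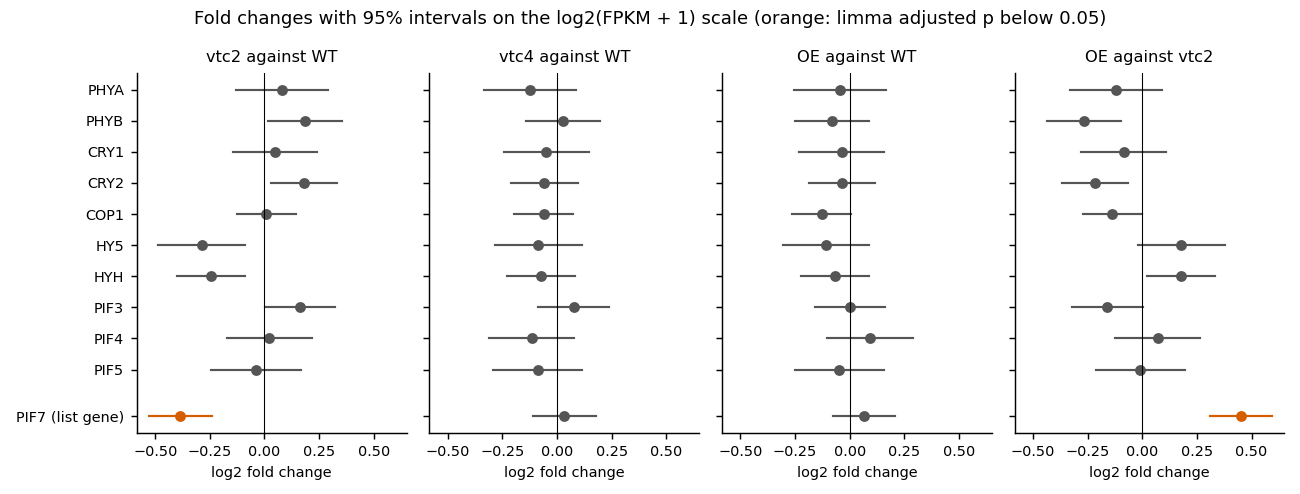
Log2 fold change (x axis, log2(FPKM + 1) scale) of each of the 10 transcripts and of PIF7 (y axis) in 4 comparisons, as points with 95% limma intervals from 3 libraries a group. The 10 are grey, since none passed the adjusted test, with HY5 and HYH lowest in vtc2 against WT at -0.29 and -0.24. PIF7, in orange, passed in vtc2 against WT at -0.38 and in OE against vtc2 at 0.45.

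Counted without adjustment, some counts of the 10 transcripts lay above the share of all genes, and others lay near or below it. As the 10 were chosen with earlier results of these data known, the counts here are descriptions only. At an unadjusted p below 0.05, 3 of 10 were higher and 2 lower in vtc2 against WT, where 8.43% and 11.3% of all genes were. The higher ones were CRY2, PHYB and PIF3, and the lower ones HY5 and HYH. In OE against vtc2, 1 was higher (HYH) and 3 lower (CRY2, PHYB and COP1), with a background of 11.9% and 11.3%. In vtc4 against WT and in OE against WT none reached that level, where 2.81% and 3.00% of all genes were higher, and 2.06% and 3.04% lower. In vtc2 against vtc4, 1 was higher and 2 lower, with a background of 10.2% and 10.7%, and in OE against vtc4 1 was higher and none lower, with 2.39% and 2.63%. Without overlap between libraries, 1 member was higher and 3 lower in OE against vtc2 (14.3% and 13% of all genes), 3 higher and 1 lower in vtc2 against vtc4 (13.9% and 13.7%), and 2 higher and 0 lower in OE against vtc4 (5.66% and 5.61%). None stood apart in vtc4 against WT (5.14% of all genes higher and 5.23% lower) or OE against WT (5.42% and 5.49%). In vtc2 against WT none was higher and 1 was lower without overlap (10.4% and 12.6% of all genes). The median log2 fold change over the 10 in vtc2 against WT was 0.04, beside 0.00 over all genes tested. After rescaling to TPM these medians were 0.12 and 0.08. The comparisons share libraries, those with vtc2 in particular, so their values are not independent of each other.

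For some of these transcripts the same replicate number held the extreme value in all 4 genotypes. In all 4 genotypes replicate 1 held the highest PIF5, the highest CRY1 and the lowest HY5 value, and replicate 3 held the lowest PIF5 value. PHYA and CRY2 were each highest in replicate 1 in 3 of the 4 genotypes. COP1 and HY5 were each highest in replicate 3 in 3 genotypes. PIF3 was highest in replicate 2, and CRY1 lowest in replicate 3, in 3 genotypes. No share over all genes was counted for 3 of 4 genotypes. With 3 replicates such matches are common by chance, so they are not read as a likeness of libraries. Of all genes tested, 3.29% were highest and 2.72% lowest in replicate 1 in all 4 genotypes, and 1.69% were lowest in replicate 3 in all 4. In WT, HY5 was 109 FPKM and PIF5 89.7 FPKM in replicate 1, against 138 and 67.8 in replicate 3. The labels do not say that a replicate number marks a shared day or harvest, and the part of such a factor in these values was not tested. With the replicate number as a block in the fit, HY5 fell in vtc2 against WT by -0.29 on the log2 scale (SE 0.0585, limma adjusted p = 0.0305) and was the 1 member called.

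**Figure D3:**
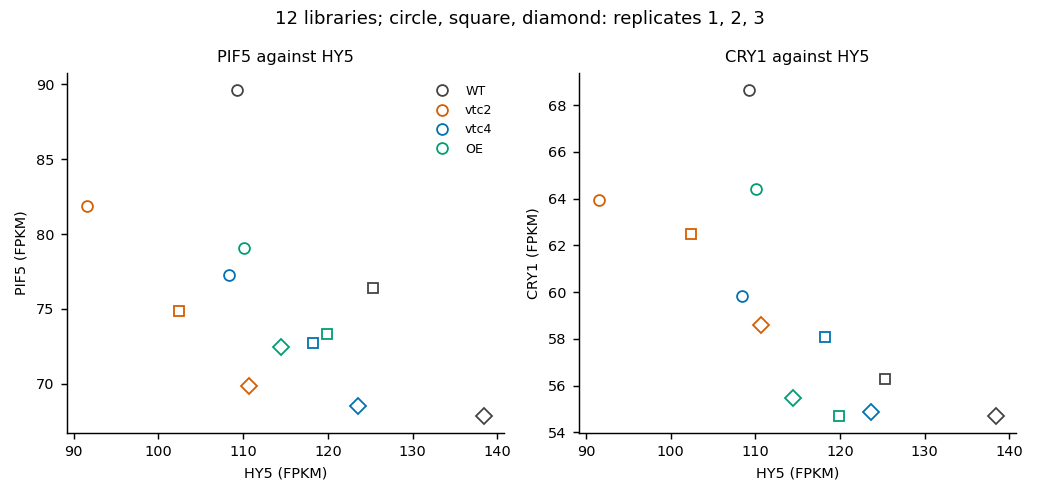
FPKM of PIF5 (left, y axis) and CRY1 (right, y axis) against FPKM of HY5 (x axis) in the 12 libraries, coloured by genotype, with circles, squares and diamonds for replicates 1, 2 and 3 and axes that do not start at 0. In every genotype the circle lies at the lowest HY5 and the highest PIF5 and CRY1, and WT spans 109 to 138 FPKM of HY5.

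Among relatives of the PIFs outside the 10, PIF7 and PIF8 fell in vtc2. Like the choice of the 10, the pathway lists used from here on were drawn up with earlier results of these data known. Their counts are therefore descriptions and not independent evidence. Of 9 other PIFs and related bHLH factors, 2 fell in vtc2 against WT and none rose, where 2.23% of all genes were called lower and 0.798% higher. The median of the 9 was -0.15 beside 0.00 for all genes, and 8 of 9 values were negative, or 6 of 9 after rescaling to TPM, a scaling that moved the median of all genes to 0.08. PIF7, a shade-responsive factor that promotes auxin synthesis genes, measured 18.9, 18.1 and 17.1 FPKM in WT, 14.4, 12.6 and 13.8 in vtc2, 18.6, 17.8 and 19.1 in vtc4, and 18.1, 19.0 and 19.7 in OE. The vtc2 libraries lay below all 9 others. The log2 fold change was -0.38 in vtc2 against WT (SE 0.0658, limma adjusted p = 0.0143), -0.42 in vtc2 against vtc4 (adjusted p = 0.0205) and 0.45 in OE against vtc2 (adjusted p = 0.00552). The call in vtc2 against WT ended without vtc2 replicate 2 or without vtc2 replicate 3 (limma adjusted p up to 0.0564), and that in OE against vtc2 held whichever of the 12 libraries was left out (limma adjusted p up to 0.0247). In vtc2 against vtc4 it ended without any of 5 libraries, vtc2 replicates 2 and 3 and the 3 of vtc4, with limma adjusted p up to 0.0974. When only the 2 groups compared were fitted, all 3 PIF7 calls ended, at limma adjusted p = 0.0825 in vtc2 against WT, 0.0604 in vtc2 against vtc4 and 0.0512 in OE against vtc2, and rescaling to TPM ended the first and the second of these. PIF7 overlaps AT5G61260 on the other strand, which averaged at most 0.531 FPKM in a genotype, and the sources used here do not say whether the quantification used strand. In OE against vtc2 PIF7 was the 1 of 9 called higher, where 2.94% of all genes were, and in vtc2 against vtc4 the 1 of 9 called lower, where 0.902% were. PIF8 measured 64.0 ± 1.39 FPKM in WT and 53.3 ± 2.69 in vtc2 (SD, n = 3 each), a log2 fold change of -0.26 (SE 0.0623, limma adjusted p = 0.0469). It measured 61.6 ± 1.59 in vtc4 and 55.6 ± 4.34 in OE (SD, n = 3 each). Unlike PIF7, PIF8 in OE overlapped vtc2 and lay below every WT library. Leaving out 1 library ended the PIF8 call for 10 of the 12 libraries, all but OE replicates 1 and 2, with limma adjusted p up to 0.17, and 6 of 10 other settings ended it too, the replicate block and TPM among them (up to 0.114).

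Target genes of HY5 and of the UV-B response lay mostly below WT in vtc2, with 1 of 12 called lower, where 2.23% of all genes were. GPXL7, a glutathione peroxidase-like gene, fell from 23.1 ± 4.79 FPKM in WT to 14.6 ± 2.15 in vtc2 (SD, n = 3 each), by -0.62 on the log2 scale (SE 0.143, limma adjusted p = 0.0405). That call ended when any 1 of 7 of the 12 libraries was left out, which were WT replicates 2 and 3, all of vtc2, vtc4 replicate 2 and OE replicate 1 (limma adjusted p up to 0.135). It also ended with no filter, with TPM, with only the 2 groups fitted and with no mean-variance trend (up to 0.11). GPXL7 overlaps AT4G31875 on the other strand, which stood at 1.39 ± 0.47 FPKM in WT and 1.59 ± 0.175 in vtc2. In vtc2 against WT 11 of the 12 values were negative, with a median of -0.27 beside 0.00 for all genes. After rescaling to TPM the medians were -0.19 and 0.08. F3H, SIG5, MYB111 and GPXL7 each rose from replicate 1 through 2 to 3 in WT, vtc2 and vtc4, though not all of them in OE. Genes of this list thus moved together between libraries, and the signs of the 12 are not separate observations. CHS, chalcone synthase at the entry to flavonoid synthesis, measured 64.8, 58.8 and 61.5 FPKM in WT, 53.3, 54.1 and 46.2 in vtc2, 61.4, 76.4 and 68.0 in vtc4, and 69.8, 60.4 and 70.1 in OE. Every vtc2 library lay below every other library. CHS was lower in vtc2 than in vtc4 by -0.41 (SE 0.0903, limma adjusted p = 0.0489) and higher in OE than in vtc2 by 0.38 (adjusted p = 0.036), while vtc2 against WT gave -0.27 (adjusted p = 0.129). It was the 1 of 12 called in each of those 2 comparisons, where 0.902% of all genes were called lower and 2.94% higher. The call in vtc2 against vtc4 ended without any of 9 libraries, all except WT replicate 3, vtc2 replicate 1 and OE replicate 2 (limma adjusted p up to 0.178). The call in OE against vtc2 ended without any of 5, vtc2 replicates 2 and 3, vtc4 replicate 3 and OE replicates 1 and 3 (up to 0.137). Of 10 other settings, 6 ended the CHS call in vtc2 against vtc4 (limma adjusted p up to 0.0895) and 4 that in OE against vtc2 (up to 0.0862), the replicate block in both. In vtc2 against vtc4 all 12 values were negative with a median of -0.43, in OE against vtc2 10 of 12 were positive with a median of 0.23, and in vtc4 against WT 7 of 12 were positive with a median of 0.06. The values in OE were mostly negative too, 10 of 12 against WT (median -0.14) and 12 of 12 against vtc4 (median -0.14, and 9 of 12 negative with TPM), with none called.

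**Figure D4:**
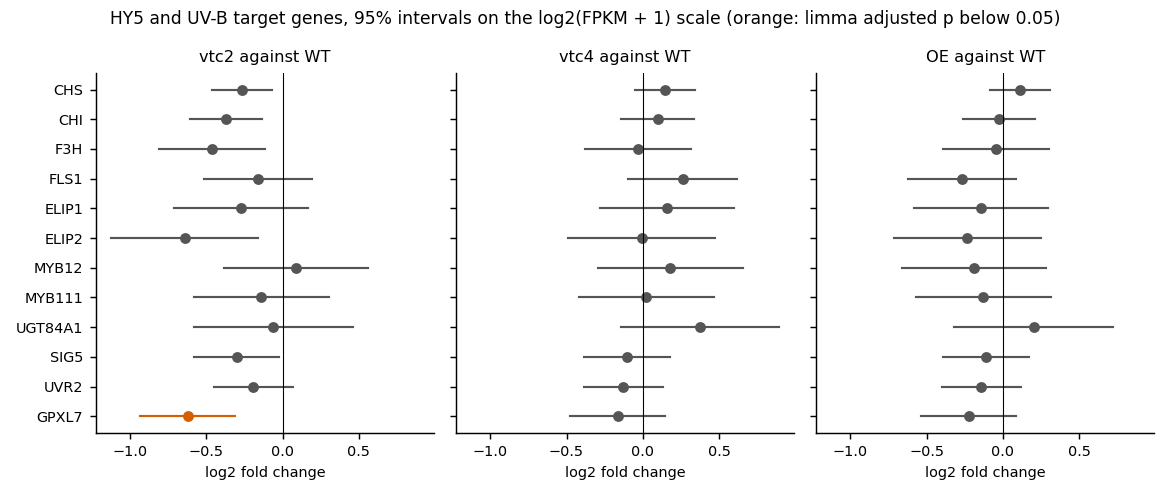
Log2 fold change (x axis, log2(FPKM + 1) scale) of the 12 HY5 and UV-B target genes (y axis) against WT in vtc2, vtc4 and OE, as points with 95% limma intervals from 3 libraries a group. In vtc2, 11 of 12 points lie below 0 and GPXL7, in orange at -0.62, is the 1 called.

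Among clock genes that act on PIF4 and PIF5, CCA1, a morning-phased repressor, fell in vtc2. It measured 411, 421 and 395 FPKM in WT, 344, 336 and 359 in vtc2, 373, 383 and 394 in vtc4, and 395, 393 and 410 in OE. The vtc2 libraries lay below all 9 others. LHY, a clock gene of the same list, was not lowest in vtc2, with means of 454 FPKM in WT, 429 in vtc2, 413 in vtc4 and 416 in OE. CCA1 was lower in vtc2 than in WT by -0.24 (SE 0.0494, limma adjusted p = 0.0266) and higher in OE than in vtc2 by 0.21 (adjusted p = 0.0361), the 1 of 8 clock genes called in each, where 2.23% of all genes were called lower and 2.94% higher. The first call ended without any of 5 libraries, the 3 of WT and vtc2 replicates 2 and 3 (limma adjusted p up to 0.11). The second ended without any of 7, those of vtc2 and OE and vtc4 replicate 1 (up to 0.142). Both calls also ended with TPM, with quantile normalization, with only the 2 groups fitted and with no mean-variance trend (limma adjusted p up to 0.395 for the first and 0.418 for the second).

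**Figure D5:**
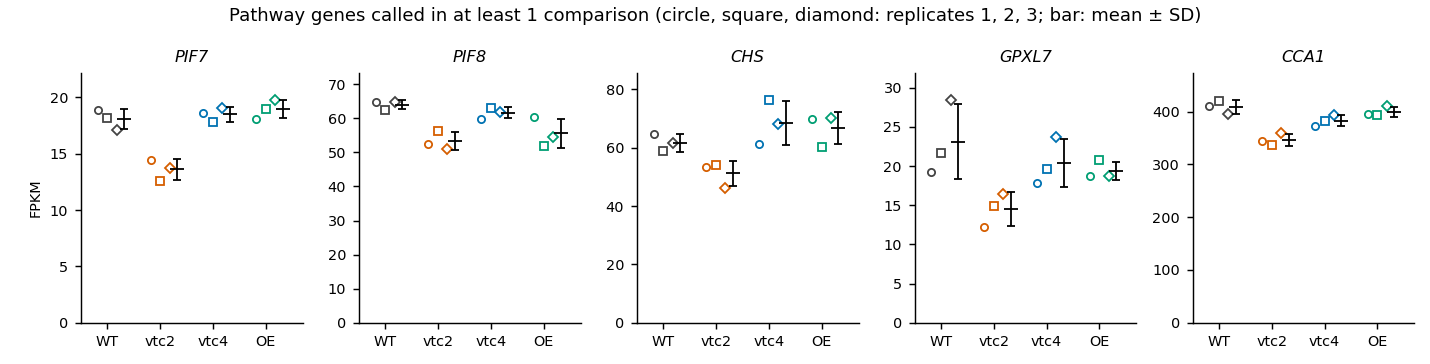
FPKM (y axis, linear, from 0) of the 5 pathway genes called in at least 1 comparison, in WT, vtc2, vtc4 and OE (x axis), with circles, squares and diamonds for replicates 1, 2 and 3 and bars for the mean ± SD of 3 libraries. PIF7 falls to 13.6 FPKM in vtc2 against 18.1 in WT, and the vtc2 points lie lowest for PIF7, CHS, GPXL7 and CCA1.

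No gene of the other 4 lists passed the limma test in any comparison. At an unadjusted p below 0.05, vtc2 against WT gave 0 higher and 1 lower of 9 other photoreceptors, 1 and 1 of 21 COP1 partners, 2 and 4 of 15 HY5 partners, and 1 and 4 of 9 PIF and shade targets, beside 8.43% higher and 11.3% lower over all genes. FHL and BBX28 stand in both of the last 2 lists. Of 9 other photoreceptors, 8 values were positive in vtc2 against WT, with a median of 0.03 beside 0.00 over all genes. The smallest unadjusted p there belonged to CRY3, a cryptochrome of the organelles and the 1 negative value, at -0.20 (limma adjusted p = 0.237), and PHYC, a phytochrome, at 0.12 (adjusted p = 0.521). Of 21 COP1 partners and subunits of the COP/DET complexes they were RUP2, a repressor of the UV-B receptor, at -0.30 (limma adjusted p = 0.137), and DET1, a repressor of light responses, at 0.14 (adjusted p = 0.201). Of 15 HY5 partners and light-regulated factors they were BBX30, a B-box protein, at -0.50 (limma adjusted p = 0.0898), and FHL, which helps phytochrome A into the nucleus, at 0.44 (adjusted p = 0.125). Of 9 PIF and shade targets tested they were PRE1, a growth-promoting helix-loop-helix gene, at -0.56 (limma adjusted p = 0.0573), and CKX5, a cytokinin oxidase, at -0.40 (adjusted p = 0.0927). The median of these shade targets was -0.05, beside 0.00 over all genes. After rescaling to TPM, where 10 genes of this list passed the filter, it was 0.04 beside 0.08 over all genes.

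The genes whose levels tracked each transcript most closely over the 12 libraries are given as a description. Likeness was measured as Pearson's r of log2(FPKM + 1) among 12158 genes with a mean of at least 5 FPKM, and the libraries share genotypes and replicate numbers. For the phytochromes these were ARA1 (0.96) and HK3 (0.96) with PHYA, and AT3G62360 (0.95) and FUM1 (0.93) with PHYB. For the cryptochromes they were MPK16 (0.94) and CNGC5 (0.94) with CRY1, and BSL1 (0.94) and CKL2 (0.94) with CRY2. COP1 went with AT1G21660 (0.91) and AT5G65540 (0.89). HY5 went with AT3G56290 (0.98) and AT2G46940 (0.98), and HYH with AT3G27350 (0.93) and AT2G31490 (0.93). PIF3 went with AT3G07400 (0.89) and WRKY2 (0.89), PIF4 with ABCF4 (0.90) and SMT1 (0.88), and PIF5 with SDP1 (0.95) and bHLH121 (0.95).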

How the data were processed

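Whole rosettes were profiled with a stranded mRNA kit and read pairs of 75 bases. The authors deposited FPKM values in a single table that gives each library its own column. The submitters' processing notes name the build TAIR10 and the tools HISAT2 2.1.0, Trimmomatic 0.36, Cuffdiff and Cufflinks 2.2.1. The sources used here do not give the annotation, strand setting or normalization option. FPKM values keep no read totals, so the depth behind each value is unknown and no counting interval is given.

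The test was limma 3.58.1 (R 4.3.3), run on log2(FPKM + 1), where changes of low genes come out too small. A gene was kept where 3 or more of the 12 libraries reached 1 FPKM. All libraries entered 1 model with genotype as the only factor, a mean-variance trend and two-sided tests. The script was tested on simulated data. P-values were adjusted by the Benjamini-Hochberg method over all 17290 genes within each comparison and called below 0.05. Replicates were independent pools of rosettes, per the labels' protocols.

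The 10 members and the pathway lists were chosen with earlier results of these data known. Named besides the 10 were VTC2 and VTC4, marker genes, every list gene called in a comparison, the 2 genes of lowest unadjusted p in vtc2 against WT from lists with no call, and the 2 genes most alike to each member. Upstream sequences, overlaps and symbols came from the RefSeq TAIR10.1 genome and annotation. Alternatives were pseudocounts of 0.1 and 0.5, other filters, rescaling by median ratios or to TPM, quantile normalization, fits of only the groups compared, no trend, a replicate block, and leaving out each library. The same alternatives for the called list genes, and the levels of LHY, were added after seeing the data.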

Additional observations from a re-analysis of the deposited data

How the results depend on the processing

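Over 22 alternatives and 6 comparisons, 1317 of 1320 values of the 10 transcripts stayed on the same side of the threshold. The count of the 10 called in vtc2 against WT went from 0 to 1 with the replicate block (HY5, limma adjusted p = 0.0305). In OE against vtc2, it ranged from 0 to 1 when single libraries were left out. For CRY2 the library left out was WT replicate 1, which is in neither group. The difference itself was therefore unchanged, and only the spread and gene set shared by the fit moved. For PHYB it was vtc2 replicate 1, a library of the comparison, and the cause was not tested. There were 39 changes of sign, all of values that were not called. Same-numbered libraries correlated between -0.169 and 0.204 in their deviations from group means, and 0 to 4 of 6 libraries per comparison correlated best with their own number, so the numbers were not taken to pair the libraries. The replicate block gave 602 genes called in vtc2 against WT beside 523 without it. Counts over all genes moved further: leaving out 1 library gave 77 to 726 in vtc2 against WT, 124 to 1302 in OE against vtc2 and 7 to 721 in vtc2 against vtc4, beside 523, 888 and 236. Fitting only the groups compared gave 13, 93 and 13. The F test over 4 groups has no such fit.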
